A study of Mus musculus with 2 samples.

Results

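Smooth muscle cells made up 115 of the 4071 cells kept from 2 single-cell libraries of mouse lung, 62 of 2745 in the library labelled WT and 53 of 1326 in the library labelled KO. A cell was taken as smooth muscle when at least 3 of the 6 genes Acta2, Myh11, Tagln, Actg2, Cnn1 and Lmod1 had a unique molecular identifier (UMI, 1 counted mRNA molecule) and Myh11, Cnn1 and Actg2 together had at least 3. The endothelial junction genes Cdh5, Pecam1 and Cldn5 together could have at most 2 UMIs in such a cell. The series studied a mouse model of hereditary hemorrhagic telangiectasia 2, an inherited disease in which arteries and veins join directly through fragile vessels. Both libraries came from lungs of C57BL/6J mice 10 to 12 weeks old, digested with dispase and DNase I, and sorted for VE-cadherin, an endothelial adhesion protein, and against CD45, a leukocyte surface protein. The WT library came from wild-type lung, as its label says, and the KO library from knockout lung. The gene that the knockout lacks, the cells in which it was deleted and the number of mice in each library are not given in the sources used here.

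Smooth muscle cells wrap airways, arteries and veins, and set the width of these tubes by contracting. Contraction runs on actin and smooth muscle myosin and is switched on by calcium, calmodulin and myosin light chain kinase, while cyclic GMP from soluble guanylate cyclase relaxes the cell. The same cells lay down elastin and collagens, and in injured vessels they can lose contractile proteins and secrete more matrix, which is called the synthetic state. Pericytes are their relatives on capillaries and share part of their genes.

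The smooth muscle cells made up 2.26% (1.74 to 2.89, exact Clopper-Pearson 95% interval) of kept WT cells and 4.0% (3.01 to 5.20) of kept KO cells. Among the cells that met either this rule or a fibroblast rule without it, they were 28.8% (22.9 to 35.4) in WT and 33.3% (26.1 to 41.2) in KO, and these limits overlap. Each group was 1 library, so no difference between them has a replicate check, no p-value is given, and all intervals cover counting error only. The sort, the gene and mitochondrial limits and the depth bear on these shares. More than 10% mitochondrial UMIs removed 15.1% of WT and 30.5% of KO barcodes, and 11 of 737 WT and 19 of 870 KO barcodes that failed the limits met the rest of the rule. The part of these in the shares was not tested.

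The 62 WT and 53 KO cells held 519819 and 610609 UMIs, with medians of 8328.5 (2101 to 23119) and 9311 (3954 to 42399) per cell. Levels are given as CPM (counts per 1e6 counts), a gene's UMIs summed over the smooth muscle cells of a library and scaled to their summed UMIs, with exact 95% Poisson limits in parentheses. Sex-linked transcripts differed between the libraries. The WT cells had the female transcript Xist and no Y-linked UMI in 61 of 62 cells, and 1 had neither. Of the KO cells, 12 had Xist alone, 32 had Y-linked UMIs alone, 4 had both and 5 had neither, so the KO library held cells of both sexes. Results are therefore also given for the 61 WT, 12 KO Xist-only and 32 KO Y-only cells. The libraries shared 12 barcode sequences, none of them in a smooth muscle cell, and a doublet caller marked 2 WT and 1 KO smooth muscle cells, which were kept.

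The genes of the rule are described first, and they cannot check the label. The cells were chosen by the measured UMIs of 9 genes, the 6 muscle genes and 3 endothelial genes of the rule, so the levels of these genes are a description. Acta2 (smooth muscle alpha actin, ENSMUSG00000035783, chromosome 19, 34241090 to 34255590, minus strand, GRCm38) stood at 10881 CPM (10599 to 11168) among WT cells against 13488 CPM (13198 to 13783) among KO cells. Tagln (transgelin, an actin-bundling protein) stood at 8688 CPM in WT against 11692 in KO, Myh11 (the smooth muscle myosin heavy chain) at 2466 CPM in WT against 2121 in KO, and Actg2 (the gamma smooth muscle actin) at 800.3 CPM in WT against 1394 in KO. Lmod1, which nucleates actin filaments, stood at 816 CPM in WT against 596 in KO, and Cnn1 (calponin, an inhibitor of myosin) at 629 CPM in WT against 698 in KO. All 6 were detected in 34 WT and 29 KO cells, while 2 cells of each library had the minimum of 3. At the edge of the rule, 7 WT and 3 KO cells had exactly 3 UMIs of Myh11, Cnn1 and Actg2, and 7 WT and 9 KO cells were left out with 2. The median Acta2 count was 6 and 5 UMIs just inside and 11 and 9 UMIs just outside, so the edge does not divide cells by Acta2.

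The smooth muscle genes that the rule did not use were also at much higher levels than in the other cells. Myl9 (the regulatory light chain of smooth muscle myosin, ENSMUSG00000067818, chromosome 2, 156775420 to 156781658, plus strand) stood at 2303 CPM (2174 to 2437) among WT cells against 2417 CPM (2296 to 2544) among KO cells, against 106 and 64.3 CPM in the fibroblast class and 34.3 and 28.8 CPM in the endothelial class. Tpm2, a tropomyosin that lies along the actin filament, stood at 3361 CPM in WT against 4772 in KO, against 97.0 and 92.3 CPM in fibroblasts and 61.4 and 39.2 CPM in the endothelial class. Des (desmin, the muscle intermediate filament) stood at 1014 CPM in WT against 932 in KO, and Mylk (the kinase that switches myosin on) at 906 CPM in WT against 894 in KO. Smtn, an actin-binding protein of contractile cells, stood at 169 CPM in WT against 169 in KO, and Pcp4l1 at 115 CPM in WT against 111 in KO. After thinning of every cell to 1500 UMIs, a Myl9 UMI was found in 75.8% of the WT and 81.1% of the KO smooth muscle cells (98.4% and 98.1% unthinned), against 1.26% and 1.64% of endothelial cells and 0.132% and 0.382% of alveolar type 2 (AT2) cells. Median depths were 4392 and 5302.5 UMIs in the endothelial class and 17622 and 19857 UMIs in the AT2 class. Of the 7 smooth muscle markers outside the rule, 4 in WT and 4 in KO were found in at least 50% of thinned cells.

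**Figure D1:**
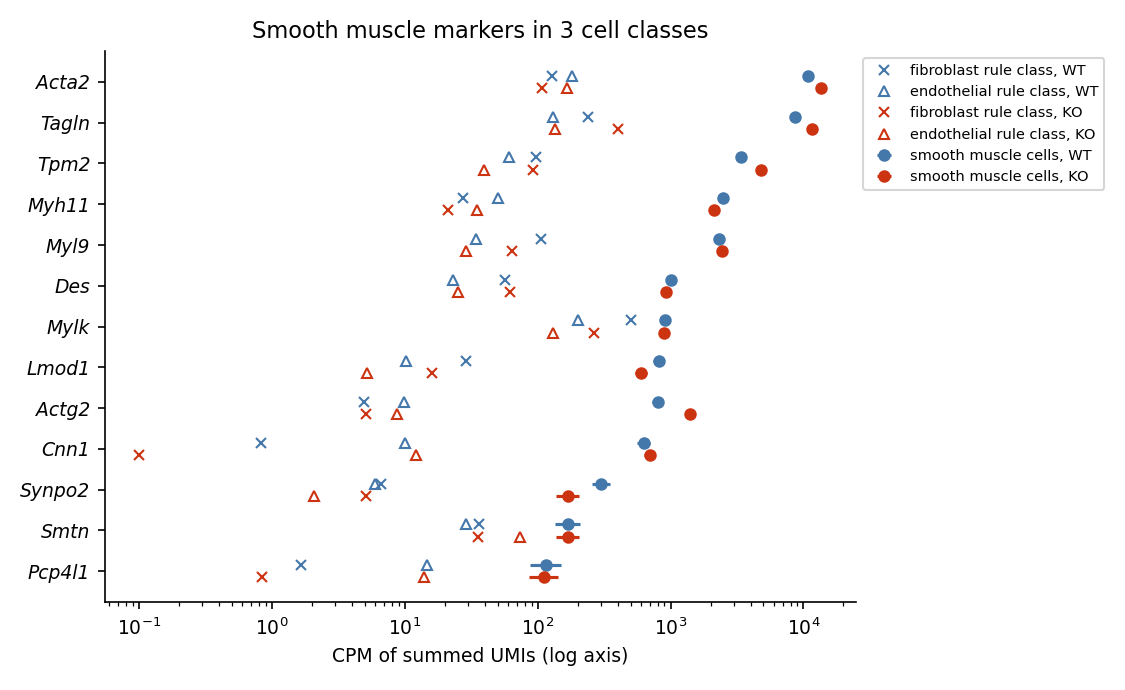
Levels of the 13 smooth muscle markers in CPM of summed UMIs on a log axis, for smooth muscle cells (filled circles with 95% counting limits), the fibroblast class (crosses) and the endothelial class (triangles) of the WT (blue) and KO (red) libraries. The 6 genes of the rule are among the 13. Each circle lies to the right of the crosses and triangles of its gene. Cnn1 in KO fibroblasts was at 0 and is drawn at 0.1.

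Other cell types were checked with marker lists. Endothelial markers summed to 302 CPM in WT and 180 CPM in KO smooth muscle cells (0 to 984 and 0 to 775 CPM in single cells), against 18692 and 18806 CPM in the endothelial class. All 8 leukocyte markers were at 0 in WT, and 1 of them had a UMI in KO. AT2 markers summed to 12404 and 14882 CPM, with medians per cell of 2758 and 1540 CPM. In 1 cell of each library, the one that also met the AT2 rule, they reached 215620.0 and 249560.0 CPM. The fibroblast rule, which asks for collagen transcripts, was also met by 61 of 62 WT and 50 of 53 KO smooth muscle cells. Their fibroblast markers summed to 8534 and 9034 CPM, against 52091 and 54925 CPM in the fibroblast class. What part of a level came from free RNA of other cells was not tested.

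Of 1313 genes at 100 CPM or more in the smooth muscle cells of both libraries, 92 were at least 2-fold above the highest of the fibroblast, endothelial and AT2 classes in both. The 12 with the highest ratios were Map3k7cl, Actc1, Sh3bgr, Timp4, Fbxl22, Tpm2, Synpo2, Myl9, Scube3, Adcy5, Des and Aoc3. Such ranks describe the cells that the rule chose and are not a test. Actc1, the cardiac alpha actin (ENSMUSG00000068614, chromosome 2, 114047282 to 114053548, minus strand), stood at 973 CPM (890.4 to 1062) among WT cells against 565 CPM (507 to 628) among KO cells, and at 15.8 and 2.43 CPM in the endothelial class. Actc1 was found in 27 WT and 20 KO cells, each of which also had Actg2. The other cardiac markers were low: the list of 10 summed to 1031 and 639 CPM, most of it Actc1, with Tnnt2 at 44.2 and 57.3 CPM. Adcy5, an adenylate cyclase, stood at 187 CPM in WT against 152 in KO, and Aoc3, an amine oxidase of vascular walls, at 183 CPM in WT against 156 in KO. Timp4, an inhibitor of matrix proteases, stood at 269 CPM in WT against 418 in KO.

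The CArG box is the DNA element bound by serum response factor, which with myocardin switches on smooth muscle genes. The strict form CCWWWWWWGG (W is A or T) was searched for on both strands in the 250 bases before each RefSeq start (GRCm38.p6). Of 27025 genes, 439 (1.62%) had a match. A near match with a G or C among its middle bases, such as ccctatatgg in the Actc1 window below, did not count. Of the 12 leading genes, 9 were in that table, and Actc1, Fbxl22 and Myl9 had a match. Acta2, Cnn1 and Lmod1, the 3 genes of the rule in the table, had no match to this strict form in this window. Boxes of other forms were not searched for. Both sequences below carry the match in capitals, 5′ to 3′ on the gene's strand. The Myl9 window ends at the annotated start of the gene. The Actc1 window ends at the first exon of the Actc1 transcript that spans the coding sequence, and lies in an intron of a second annotated Actc1 transcript that starts further upstream. They are shown because both genes led the list and are contractile, and because over all cells Actc1 was called lower in KO while Myl9 was not called. The Actc1 window lies at chr2:114052888-114053125 (minus strand, box 47 bases before the RefSeq start) and the Myl9 window at chr2:156775214-156775419 (plus strand, box 161 bases before the RefSeq start). The bases next to the RefSeq start that overlap an annotated exon are not printed, 12 for Actc1 and 44 for Myl9.
Actc1: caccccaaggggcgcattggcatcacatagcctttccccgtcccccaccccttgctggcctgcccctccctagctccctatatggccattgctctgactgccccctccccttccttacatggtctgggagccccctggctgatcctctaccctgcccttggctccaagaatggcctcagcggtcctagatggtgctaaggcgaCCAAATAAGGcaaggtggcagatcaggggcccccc
Myl9: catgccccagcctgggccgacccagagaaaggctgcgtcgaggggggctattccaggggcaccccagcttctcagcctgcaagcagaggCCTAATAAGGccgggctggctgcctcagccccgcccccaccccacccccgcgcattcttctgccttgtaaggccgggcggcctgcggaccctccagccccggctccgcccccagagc
A match describes these letters only, and neither binding nor its effect was measured.

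The smooth muscle cells formed a range from strongly contractile to pericyte-like in both libraries. Over WT cells, the 7 smooth muscle markers outside the rule summed to a median of 6627 CPM (389 to 17646), and over KO cells to 6106 CPM (629 to 23172). The median sum of the 12 pericyte markers was 1149 CPM (117 to 14642) for WT cells against 1799 CPM (150 to 17302) for KO cells. The lowest contractile sums, 389 and 629 CPM, belonged to the cell of each library that also met the AT2 rule. That KO cell also had the lowest KO pericyte sum, so these low ends do not describe pericyte-like cells. With each cell thinned to 1500 UMIs, both sums had a Spearman correlation of -0.48 over 62 WT cells and -0.32 over 53 KO cells. These are descriptions within 1 library each, and the sums share each cell's total, so a higher share of contractile UMIs leaves less room for others.

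**Figure D2:**
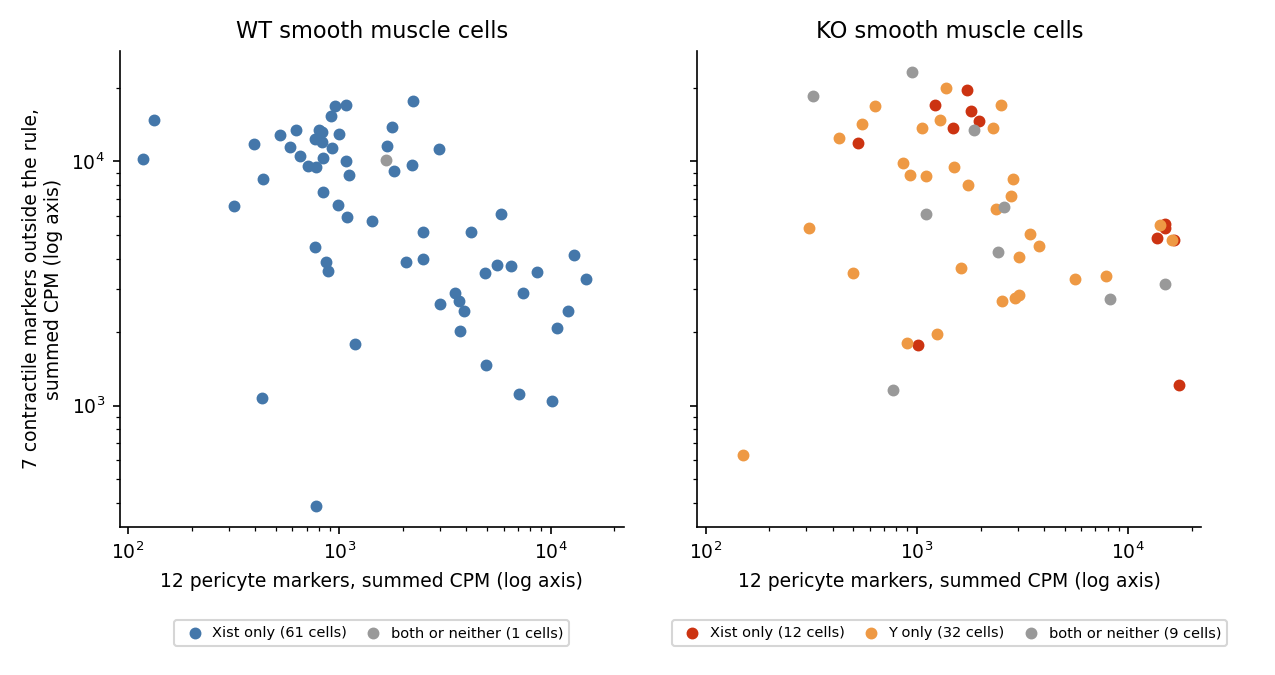
Each point is 1 smooth muscle cell, WT left and KO right, with the summed CPM of 12 pericyte markers on the x axis and of 7 contractile markers outside the rule on the y axis, both log axes. Colours give Xist-only, Y-only and other cells. The highest pericyte sums, up to 14642 CPM in WT and 17302 CPM in KO, belong to cells of lower contractile sums.

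The range was described by splitting the cells on Cnn1. It was not detected in 26 of 62 WT and 24 of 53 KO cells, whose median depths of 5072.5 and 7701.5 UMIs were below the 9444 and 11779 UMIs of the cells with Cnn1, and the part of depth in the split was not tested. In cells with and without Cnn1, Actg2 stood at 1086 and 217 CPM among WT cells, and at 2109 and 201 CPM among KO cells. Tpm2 stood at 4548 and 936 CPM among WT cells, and at 6909 and 1210.1 CPM among KO cells. Acta2 stood at 14903 and 2668 CPM among WT cells, and at 19791 and 2979 CPM among KO cells. Of these genes only Tpm2 lies outside the rule, so the levels of Cnn1, Actg2 and Acta2 over the split draw on values that chose the cells and are given as a description. Actc1 stood at 1450.1 and 0 CPM among WT cells, and at 901 and 4.37 CPM among KO cells. Genes of pericytes were on the other side of the split. Pdgfrb, the receptor through which PDGF recruits mural cells, stood at 178 and 983 CPM among WT cells, and at 228 and 1341 CPM among KO cells. Higd1b, a pericyte marker, stood at 0 and 386 CPM among WT cells, and at 15.7 and 603 CPM among KO cells, and Cox4i2, a respiratory chain subunit of pericytes, at 51.6 and 866 CPM among WT cells, and at 62.9 and 795 CPM among KO cells. Notch3, the Notch receptor of mural cells, stood at 269 and 726 CPM among WT cells, and at 233 and 751 CPM among KO cells. The vascular gene Heyl, a Notch target, was nearer between them, at 183 and 287 CPM among WT cells, and at 217 and 279.6 CPM among KO cells. Gpx3, a secreted glutathione peroxidase, stood at 178 and 1399 CPM among WT cells, and at 173 and 1105 CPM among KO cells.

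The genes whose levels followed Actg2 most closely over cells are given with their mean Spearman correlation over both libraries (997 genes considered, 62 and 53 cells): Tpm2 (0.69), Acta2 (0.67), Tagln (0.61), Myl6 (0.61), Actb (0.56), Tpm1 (0.56), Cnn1 (0.55), Myl9 (0.53), Csrp1 (0.52) and Lmod1 (0.51). The most opposed were App (-0.45), Malat1 (-0.45), Gpx3 (-0.45), Tbx5 (-0.43) and Timp3 (-0.42). Pdgfrb was the closest to Notch3, at a weaker correlation of 0.42. Actg2, Acta2, Tagln, Cnn1 and Lmod1 are genes of the rule, so their correlations with each other draw on the values that chose the cells. All of these cells share a library and these counts are sparse.

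Summed markers of vascular muscle were higher than in the other classes, with Mustn1 as most of the sum. The summed markers of airway muscle were lower than in the endothelial class. The 10 vascular smooth muscle markers summed to 2776 CPM in WT and 2370 CPM in KO smooth muscle cells, against 488 and 357 CPM in fibroblasts and 180.3 and 134 CPM in the endothelial class. Mustn1 stood at 1701 CPM in WT against 1223 in KO, Notch3 (ENSMUSG00000038146, chromosome 17, 32120820 to 32166852, minus strand) at 419 CPM (366 to 479) among WT cells against 427 CPM (377 to 483) among KO cells, and Heyl at 217 CPM in WT against 241 in KO. The 8 airway markers summed to 356 and 280.1 CPM, against 305 and 255 CPM in fibroblasts and 733 and 1048 CPM in the endothelial class. Chrm3, the muscarinic receptor of airway muscle, had no UMI in either library and Chrm2 stood at 7.70 and 4.91 CPM. Lgr6, a marker of airway muscle, stood at 77 CPM in WT against 42.6 in KO, and Hhip, a hedgehog antagonist, at 21.2 CPM in WT against 13.1 in KO. Foxf1, a transcription factor of lung mesenchyme, stood at 57.7 CPM in WT against 78.6 in KO, but 62.8% of thinned WT endothelial cells had a UMI of it, against 8.06% of WT smooth muscle cells.

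The KO and WT libraries were compared gene by gene. A gene is called higher or lower in KO when its levels differed by at least 1.5-fold and their 95% counting limits did not overlap. At a mean of at least 50 CPM, 189 of 3106 genes (6.08%) were higher and 182 (5.86%) lower, with a median log2 ratio of -0.02. At 10 CPM, the minimum used for gene lists, 245 of 8393 genes (2.92%) were higher and 289 (3.44%) lower, with a median of -0.08. The counts below are to be read against these shares. Members of a list with a mean under 10 CPM were not measured, and a call is a difference of these 2 libraries, not a test of the genotype. Because fewer cells of one kind and less RNA per cell cannot be told apart in summed counts, values per cell are given for the genes that matter.

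Most genes of the contractile apparatus were not called. Of the 45 genes measured in a list of 46, 5 were higher, 2 lower and 38 not called, with a median log2 ratio of 0.10. All 6 genes of the rule are in the list, and 1 of them, Actg2, was called. Over the 39 genes outside the rule, 4 were higher, 2 lower and 33 not called, with a median of 0.070. Myl9 and Myh11, Des, Mylk and Cald1 (caldesmon), all parts of the contractile machine, had ratios of 1.05 (0.972 to 1.13), 0.86 (0.795 to 0.93), 0.919 (0.815 to 1.04), 0.987 (0.871 to 1.12) and 1.02 (0.929 to 1.12). Myh11 is a gene of the rule, so its ratio is a description. Tpm2, outside the rule, was further from 1 at 1.42 (1.34 to 1.51) and was not called. The 4 higher genes outside the rule were Csrp2, Tpm4, Itgb1 and Pdlim5. Csrp2, a LIM protein of smooth muscle found also in less mature cells, stood at 562 CPM (499 to 630.0) among WT cells against 1924 CPM (1816 to 2038) among KO cells. Tpm4, a cytoskeletal tropomyosin, stood at 209.7 CPM (172 to 253) among WT cells against 771 CPM (703 to 844) among KO cells. Itgb1, the beta chain of matrix-binding integrins, stood at 909.9 CPM in WT against 1649 in KO. Synpo2, an actin-bundling protein of the contractile Z-disc and dense bodies (ENSMUSG00000050315, chromosome 3, 123076519 to 123236149, minus strand), was lower at 302 CPM (257 to 353) among WT cells against 169 CPM (138 to 205) among KO cells. Ppp1r12a, the targeting subunit of myosin phosphatase that ends contraction, was lower at 439 CPM in WT against 277 in KO.

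These contractile differences were uneven between the sexes of the KO cells. Csrp2 stood at 565 (WT), 4097 (KO Xist-only) and 882 (KO Y-only) CPM, Tpm4 at 205 (WT), 1385 (KO Xist-only) and 433 (KO Y-only) CPM and Actg2 at 797 (WT), 2106 (KO Xist-only) and 959 (KO Y-only) CPM. Tagln stood at 8694 (WT), 16403 (KO Xist-only) and 9427 (KO Y-only) CPM and Tpm2 at 3361 (WT), 6877 (KO Xist-only) and 3452 (KO Y-only) CPM, so for this pair KO Y-only cells were near WT and the KO Xist-only cells were above both. The KO Xist-only levels rest on few cells. Of the 12, 4 were among the 7 KO cells with Igfbp2 described below. Counted over all genes, these 4 held 49.5% of the UMIs of the 12, with 22.2% in 1 cell. Another 4 were among the KO cells with at least 15 Cdkn1c UMIs, and the 8 together held 77.2%. In the KO cells with at least 15 Cdkn1c UMIs, Actg2 and Tpm2 were below WT, at 186 and 1853 CPM. Those cells therefore did not carry the higher levels of Actg2 and Tpm2. Without both sets of KO cells, the log2 ratio of Csrp2 fell from 1.78 to 0.46 and that of Tpm4 from 1.88 to 0.49. Synpo2 was low in both KO groups, at 294 (WT), 152 (KO Xist-only) and 178 (KO Y-only) CPM. Actc1 was the reverse of Actg2, at 939 (WT), 83.6 (KO Xist-only) and 689 (KO Y-only) CPM, and was lower in KO over all cells. In KO Y-only cells it was not called, at 0.733 times WT. The log2 ratio of Actc1 over all cells went from -0.78 to -0.16 without both sets of KO cells. Sex, animal and cell state cannot be told apart, and the labels do not give the number of mice behind the 12 Xist-only KO cells.

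Elastic fibre and matrix genes were often higher in KO. Of the 61 measured in a list of 63, 20 were higher, 11 lower and 30 not called, with a median log2 ratio of 0.49 (0.48 with Lum, which had no KO UMI, at the bound that 3 UMIs set). Over all gene lists, higher members fell from 56 to 22 without both sets of KO cells described below, which also leaves fewer KO UMIs. Eln (elastin, the rubber-like protein of artery walls and alveoli, ENSMUSG00000029675, chromosome 5, 134702593 to 134747323, minus strand) stood at 5352 CPM (5155 to 5554) among WT cells against 14165 CPM (13868 to 14466) among KO cells, a ratio of 2.65 (2.54 to 2.76). Over single cells, Eln lay between 0 and 25294 CPM in WT cells, with a median of 3499, and between 0 and 53066 CPM in KO cells, with a median of 12326. It was high in KO cells of both sexes, at 5403 (WT), 13383 (KO Xist-only) and 15153 (KO Y-only) CPM by sex. Its log2 ratio of 1.40 lay between 1.13 and 1.51 over all 15 alternatives, and its ratio was 3.08 in fibroblasts, 1.28 in the endothelial class and 1.60 in the AT2 class.

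Other elastic fibre genes were higher too, though not all. Mfap4, a microfibril protein that binds elastin, stood at 96.2 CPM (71.4 to 127) among WT cells against 211 CPM (176 to 251) among KO cells and was high in both KO sexes, at 95.5 (WT), 193 (KO Xist-only) and 226 (KO Y-only) CPM. Lox, the enzyme that crosslinks elastin and collagen, stood at 92.3 CPM in WT against 224 in KO, and its relatives Loxl1 at 223 CPM in WT against 372 in KO and Loxl2 at 142 CPM in WT against 229 in KO. With cells thinned to 1500 UMIs, the log2 ratio of Lox turned to -0.15. Ltbp2, a microfibril-associated protein, stood at 264 CPM (221 to 312) among WT cells against 714 CPM (649 to 784) among KO cells. Without both sets of KO cells described below, the log2 ratios of Ltbp2, Loxl1 and Loxl2 were 0.40, 0.41 and -0.39. Those of Mfap4 and Lox were then 0.97 and 0.95. The fibrillin gene Fbn1, at 348 CPM in WT against 496 in KO, Mfap5, at 208 CPM in WT against 305 in KO, and Fbln5, at 96.2 CPM in WT against 123 in KO, were not called. Ltbp4 and Ltbp3, which hold latent TGF-beta in the matrix, were lower, at 433 CPM in WT against 264 in KO and 123 CPM in WT against 65.5 in KO.

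The chains of collagen IV, the network of basement membranes, were among the 12 genes with the highest ratios. Col4a1 (ENSMUSG00000031502, chromosome 8, 11198423 to 11312826, minus strand) stood at 877 CPM (799 to 962) among WT cells against 3361 CPM (3217 to 3509) among KO cells, and Col4a2 (ENSMUSG00000031503, chromosome 8, 11312805 to 11449287, plus strand) at 429 CPM (375 to 489) among WT cells against 1626 CPM (1527 to 1731) among KO cells. Their RefSeq starts lie 21 bases apart on opposite strands, and their ratios were alike at 3.83 (3.46 to 4.25) and 3.79 (3.28 to 4.4). In fibroblasts, endothelium and AT2 cells the ratios were 2.52, 2.53 and 1.23 for Col4a1, and 2.18, 2.03 and 1.14 for Col4a2. Over single cells, Col4a1 lay between 0 and 5051 CPM in WT cells, with a median of 749, and between 329.7 and 19068 CPM in KO cells, with a median of 1135. The 5 highest KO cells held 56.7% of its KO UMIs. Of other matrix genes known from basement membranes, 3 that were called are given here, picked after their values were seen: Lamb1 (a laminin chain) at 73.1 CPM in WT against 208 in KO, Nid1 (nidogen) at 112 CPM in WT against 233 in KO and Hspg2 (perlecan) at 177 CPM in WT against 321 in KO. Lamb1 and Nid1 were not called in KO Y-only cells, at 1.44 and 1.39 times WT, and had log2 ratios of 0.39 and 0.18 without the 14 KO cells of both sets described below. Fn1, fibronectin, stood at 196 CPM in WT against 617 in KO. Of the fibrillar collagens, Col1a1 was higher at 1737 CPM (1626 to 1854) among WT cells against 2818 CPM (2687 to 2955) among KO cells, while Col1a2, at 1647 CPM in WT against 2340.3 in KO, and Col3a1, at 3155 CPM in WT against 2352 in KO, were not called. The log2 ratio of Col1a1 was 0.071 without the 14 KO cells.

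The 11 lower matrix genes included small proteoglycans and matrix-modulating proteins. Sparcl1, a secreted anti-adhesive protein, stood at 1433 CPM (1332 to 1539.9) among WT cells against 701 CPM (636 to 771) among KO cells, Ogn (osteoglycin) at 333 CPM in WT against 154 in KO and Prelp at 187 CPM in WT against 80.2 in KO. Sparc, its relative with a role in collagen assembly, missed the 1.5-fold limit at 3988 CPM (3818 to 4163) among WT cells against 5953 CPM (5761 to 6149.8) among KO cells. Dcn (decorin, a collagen-binding proteoglycan made by fibroblasts) stood at 369 CPM (319 to 425) among WT cells against 37.7 CPM (23.9 to 56.5) among KO cells, but 5 cells held 97.9% of its WT UMIs, and it was found in only 9 WT and 4 KO cells.

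**Figure D3:**
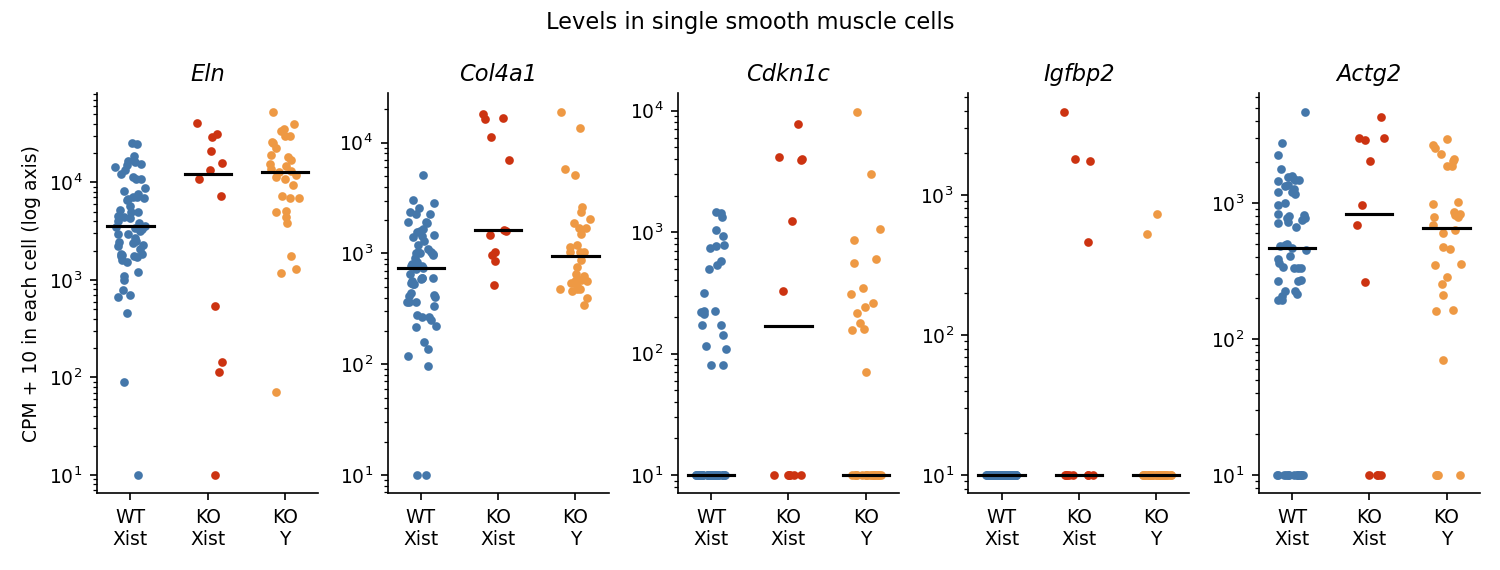
Eln, Col4a1, Cdkn1c, Igfbp2 and Actg2 in single smooth muscle cells as CPM + 10 on a log axis, for WT Xist-only, KO Xist-only and KO Y-only cells, with the median as a bar and cells at 0 drawn at 10. Eln was shifted in most KO cells of both sexes, whereas the Cdkn1c and Igfbp2 differences came from a few KO cells.

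Beside collagen IV, the 12 genes with the highest KO over WT ratios included Igfbp2, Col12a1, Mt2, Cdkn1c, Cadm1, Wisp1, F2r, Ctgf and Flt1. Ctgf, a matricellular protein switched on by TGF-beta and YAP, stood at 481 CPM (423 to 544) among WT cells against 2239 CPM (2122 to 2361) among KO cells. It was found in 40 of 62 WT and 45 of 53 KO cells, and stood at 483 (WT), 4180.5 (KO Xist-only) and 1333 (KO Y-only) CPM. Ctgf was also called higher in fibroblasts and endothelium, at ratios of 2.49 and 7.42, but not in AT2 cells, at 1.47. Wisp1, a relative of Ctgf in the CCN family, stood at 25 CPM in WT against 129 in KO. F2r, the thrombin receptor, stood at 88.5 CPM (64.8 to 118) among WT cells against 418 CPM (368 to 472) among KO cells and at 85.7 (WT), 815 (KO Xist-only) and 202 (KO Y-only) CPM by sex. The F2r ratios were 1.16, 4.69 and 1.59 in fibroblasts, endothelium and AT2 cells. Mt2, a metal-binding metallothionein, stood at 32.7 CPM in WT against 209.6 in KO, a ratio of 6.41 (3.85 to 11.3). It was found in 8 WT and 15 KO cells, and 5 cells held 91.4% of its KO UMIs. In the fibroblast class, Mt2 levels were 29.9 CPM (WT) and 2348 CPM (KO).

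Some of these differences lay in few cells. Igfbp2, a secreted binder of insulin-like growth factors (ENSMUSG00000039323, chromosome 1, 72824503 to 72852474, plus strand), had 0 UMIs in WT and 262 in KO, 429 CPM (379 to 484), which is 74.3-fold the level that 3 UMIs would give in the WT library. The exact 95% lower limit of the ratio was 60.04. Its UMIs lay in 7 KO cells, the 5 highest of which held 95.4% of them. Those 7 cells, picked after their values were seen, were high in some contractile genes and not in others. Actg2, a gene of the rule, stood at 3017 CPM and Tpm2 at 8166 CPM. Myh11, at 1733 CPM, was below the 2434 CPM of WT Xist-only cells, and Actc1 reached at most 358 CPM in any of the 7. Eln stood at 18356 CPM and Ctgf at 5468 CPM. A separate 7 KO cells had at least 15 UMIs of Cdkn1c, an imprinted inhibitor of the cell cycle (ENSMUSG00000037664, chromosome 7, 143458339 to 143461050, minus strand). In WT, 0 of 62 cells had as many. In these 7 cells Cdkn1c stood at 5676 CPM, Col4a1 at 15316 CPM and Col4a2 at 6784 CPM, and the pericyte genes Mcam and Higd1b at 3240.3 and 1271 CPM. Cnn1 was not detected in any of them, and Eln stood at 2681 CPM. Each set held 4 Xist-only and 2 Y-only cells.

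Without both sets of KO cells, and with all 62 WT cells kept, 81 genes were higher and 98 lower. The sets were picked in KO alone, so a fall of genes high in them is built into this setting. The ratios of Col12a1, Flt1, Loxl2, Tgfb3, Hbegf and Lgals1 then turned below 1, at log2 values of -0.16, -0.36, -0.39, -0.18, -0.052 and -0.085. Col4a1 kept a log2 ratio of at least 0.59, and Col4a2 of at least 0.70, in every alternative. Hspb1, Hspa8, Hspb7, Maff, Cdkn1a, Mfap4, Higd1a and Eln, like the collagen IV pair, stayed at least 1.5-fold higher in every alternative. So did Ctgf, Cadm1, Wisp1, Fn1, Hspg2, Mt2 and Tnfrsf12a.

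**Figure D4:**
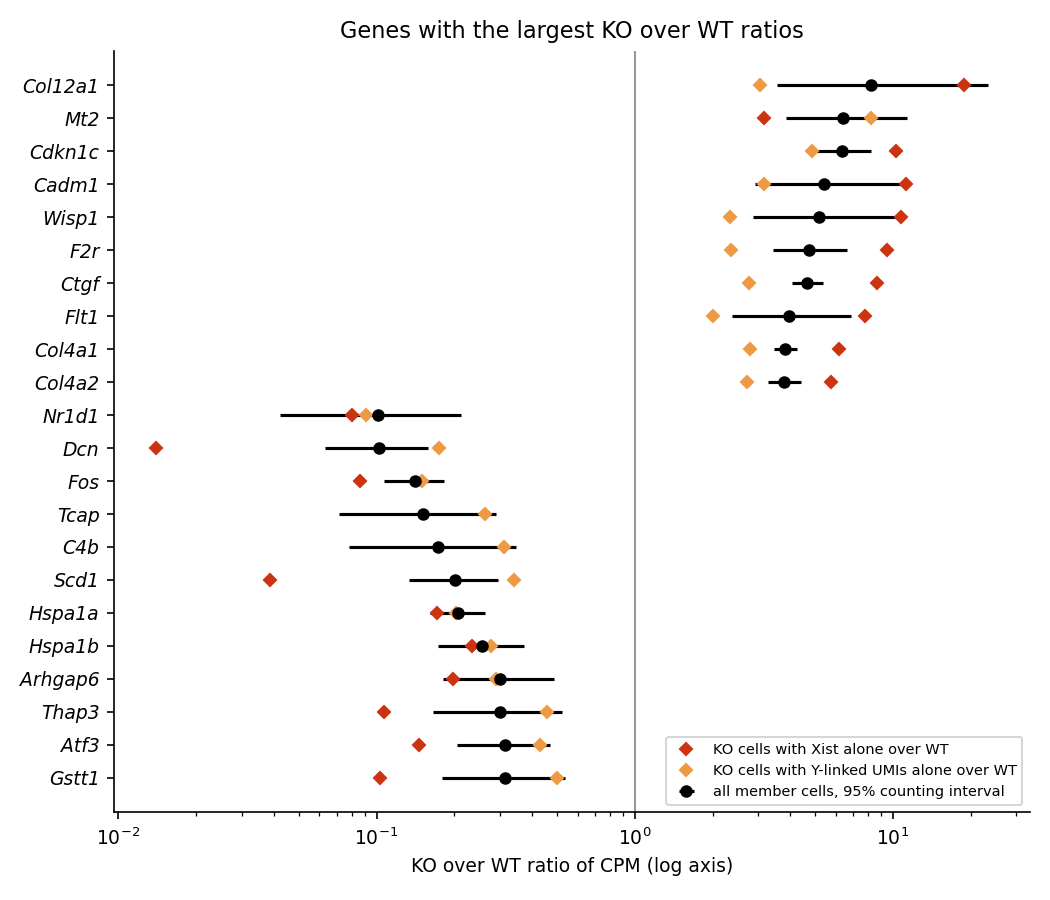
KO over WT ratios on a log axis for 10 of the 12 highest and the 12 lowest genes, over all smooth muscle cells (black, 95% counting limits), KO Xist-only cells over WT (red) and KO Y-only cells over WT (orange). Igfbp2 is left out because WT was at 0, and Tcap and C4b have no red point because those cells had no UMI. Orange points lie nearer 1 than red ones for most genes, but on the same side for all of them.

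The 12 genes with the lowest ratios were Nr1d1, Dcn, Fos, Tcap, C4b, Scd1, Hspa1a, Hspa1b, Arhgap6, Thap3, Atf3 and Gstt1. Nr1d1 (the circadian repressor REV-ERB alpha, ENSMUSG00000020889, chromosome 11, 98767932 to 98775333, minus strand) stood at 129 CPM (99.9 to 164) among WT cells against 13.1 CPM (5.66 to 25.8) among KO cells, and was found in 36 of 62 WT and 8 of 53 KO cells. It was low in KO cells of both sexes, at 131 (WT), 10.5 (KO Xist-only) and 11.9 (KO Y-only) CPM. Nr1d1 was also lower in the other classes, with ratios of 0.377, 0.253 and 0.363 in fibroblasts, endothelium and AT2 cells. Of 14 circadian genes measured it was the 1 lower gene and none was higher, while Rora stood at 152 CPM in WT against 187 in KO, Clock at 84.6 CPM in WT against 68.8 in KO and Per1 at 61.6 CPM in WT against 80.2 in KO. Scd1, a desaturase of fatty acid synthesis, stood at 269 CPM in WT against 54 in KO, and C4b, a complement protein, at 94.3 CPM in WT against 16.4 in KO. The ratios of Scd1 in fibroblasts, endothelium and AT2 cells were 0.445, 0.305 and 0.589, lower there as well. Tcap, a titin-binding muscle protein, stood at 119 CPM in WT against 18 in KO and Arhgap6, which inactivates a small GTPase, at 131 CPM in WT against 39.3 in KO.

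Immediate early genes, which cells switch on within minutes of a stimulus, were often lower. Of the 37 measured in a list of 41, 18 were lower and 3 higher, with a median log2 ratio of -0.64. Fos (ENSMUSG00000021250, chromosome 12, 85473890 to 85477273, plus strand) stood at 779 CPM (705 to 859) among WT cells against 109.7 CPM (85 to 139) among KO cells. Over single cells, Fos lay between 0 and 10349 CPM in WT cells, with a median of 236, and between 0 and 1249 CPM in KO cells, with a median of 0. Jun stood at 1089 CPM in WT against 572 in KO, Cyr61 at 773 CPM in WT against 334 in KO, Nr4a1 at 179 CPM in WT against 59 in KO and Socs3, an inhibitor of cytokine signals, at 82.7 CPM in WT against 13.1 in KO. Egr1 and Junb, named after their values were seen, stood at 679 CPM in WT against 313 in KO and 577 CPM in WT against 195 in KO. Jund was nearly level, at 1012 CPM in WT against 1006 in KO. The 3 higher genes were Ctgf, Klf2 and Maff. Maff, a small transcription factor of stress responses, stood at 11.5 CPM (4.24 to 25.1) among WT cells against 65.5 CPM (46.8 to 89.2) among KO cells. Fos was also lower in the other classes, with KO over WT ratios of 0.291, 0.194 and 0.518 in fibroblasts, endothelium and AT2 cells.

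The heat shock list went both ways, with 5 higher and 3 lower of 24 measured. Hspa1a and Hspa1b, a pair of near-identical inducible HSP70 genes (chromosome 17, 34969190 to 34972156 and chromosome 17, 34956436 to 34959238) whose reads can be split between them, were lower, at 664 CPM (596 to 738) among WT cells against 138 CPM (109.7 to 170.3) among KO cells and 242 CPM in WT against 62.2 in KO. Hspa1a was also lower in the other classes, at ratios of 0.312, 0.312 and 0.359. The constitutive HSP70 gene Hspa8 was higher, at 668 CPM (599 to 742) among WT cells against 1399 CPM (1306 to 1496) among KO cells, as were the small heat shock genes Hspb1, at 629 CPM (563 to 701) among WT cells against 1408 CPM (1316 to 1506) among KO cells, and Hspb7, a chaperone of muscle, at 61.6 CPM (42.1 to 86.9) among WT cells against 233 CPM (196 to 274) among KO cells. Hspb1 had ratios of 1.35, 0.487 and 1.12 in fibroblasts, endothelium and AT2 cells. Both Hspb1 and Hspa8 were high in both KO sexes, at 637 (WT), 1609.5 (KO Xist-only) and 1354 (KO Y-only) CPM and 670.3 (WT), 1484 (KO Xist-only) and 1217 (KO Y-only) CPM.

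Receptors and signals that set muscle tone differed in a few genes. Of 21 vasoactive receptors measured in a list of 53, 2 were higher (F2r and Adora1) and 3 lower (Calcrl, Ramp2 and Ptger2). In that order, the 3 lower ones had 40.4 CPM in WT against 4.91 in KO, 32.7 CPM in WT against 6.55 in KO and 23.1 CPM in WT against 3.28 in KO. Calcrl and Ramp2, parts of adrenomedullin and CGRP receptors, are also endothelial markers, found in 92.7% and 92.9% of thinned WT endothelial cells. Ednra, the endothelin receptor that constricts vessels, stood at 215 CPM (177 to 259) among WT cells against 156 CPM (126 to 190.2) among KO cells, Ednrb at 86.6 CPM in WT against 73.7 in KO and Ramp1, a part of the CGRP receptor, at 289 CPM in WT against 334 in KO. Of 32 genes of cyclic nucleotide and G protein signalling measured, 1 was higher and 3 lower. Gucy1a3, the alpha subunit of the nitric oxide receptor guanylate cyclase, was lower at 1019.6 CPM (935 to 1110.2) among WT cells against 657 CPM (594 to 724) among KO cells, while its partner Gucy1b3 was not called at 456 CPM (399.7 to 518) among WT cells against 401 CPM (353 to 455) among KO cells. Plcb4, a phospholipase that raises calcium, and Rgs2, which turns off Gq signals, were lower at 259.7 CPM in WT against 139 in KO and 221 CPM in WT against 105 in KO. Rock2, a kinase that keeps myosin active, was higher at 246 CPM in WT against 396 in KO.

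Of 33 channel and calcium genes measured in a list of 44, 5 were lower and 1 higher. Kcnk3, a potassium channel of pulmonary artery muscle, was nearly level at 342 CPM (294 to 397) among WT cells against 355 CPM (309.7 to 406) among KO cells, as was Atp2a2, the calcium pump of the sarcoplasmic reticulum, at 292 CPM in WT against 293 in KO. Cacna1c, the L-type calcium channel, was not called, at 133 CPM in WT against 103 in KO. Atp2b4, a calcium pump of the plasma membrane, stood at 179 CPM in WT against 99.9 in KO. Scn7a, a sodium channel also found in 65% of thinned WT endothelial cells, stood at 100.0 CPM in WT against 32.8 in KO. Kcnj8 and Abcc9, which together form the potassium channel of pericytes and vascular muscle that opens when ATP falls, stood at 26.9 CPM in WT against 4.91 in KO and at 36.6 CPM in WT against 4.91 in KO. The higher gene was Trpc6, a calcium-permeable cation channel, at 32.7 CPM (19.1 to 52.4) among WT cells against 106 CPM (82.2 to 136) among KO cells, with 33.1 (WT), 256 (KO Xist-only) and 41.6 (KO Y-only) CPM by sex.

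Transcription factors of the lineage were mostly not called, with 2 higher and 4 lower of 34 measured. Myocd (myocardin, the coactivator of serum response factor) stood at 92.3 CPM (68.1 to 122) among WT cells against 95 CPM (72.1 to 123) among KO cells and Srf itself at 53.9 CPM in WT against 31.1 in KO. Tbx2 was higher at 187 CPM in WT against 306 in KO, and the flow-responsive factor Klf2 at 65.4 CPM in WT against 119.5 in KO. Zeb2, a repressor in mural cells, was lower at 796 CPM (722 to 877) among WT cells against 491 CPM (437 to 550.2) among KO cells, Nr2f2 (COUP-TFII, a factor of veins) at 375 CPM in WT against 221 in KO, and Rbpj, the DNA-binding partner of Notch, at 146 CPM in WT against 78.6 in KO. Of 10 Notch pathway genes measured, Rbpj and Maml2 were lower and none higher. Notch3 and Heyl had ratios of 1.02 (0.848 to 1.23) and 1.11 (0.861 to 1.43).

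Of 40 TGF-beta and BMP genes measured in a list of 50, 5 were higher and 1 lower, with a median log2 ratio of -0.13. The ligands Tgfb2 and Tgfb3 stood at 217 CPM (179 to 261) among WT cells against 444 CPM (393 to 499.9) among KO cells and 73.1 CPM in WT against 144 in KO, and Fst (follistatin, which binds activin) at 127 CPM in WT against 221 in KO. The Fst ratio turned below 1 with thinned cells, at a log2 value of -0.32. Ctgf, a known target of TGF-beta, was also among the higher genes. The BMP target genes Id1, Id2 and Id3 were not called, at 200.1 CPM in WT against 183 in KO, 612 CPM in WT against 437 in KO and 866 CPM in WT against 845 in KO. Acvrl1 and Eng, the receptors mutated in forms of hereditary hemorrhagic telangiectasia, stood at 59.6 CPM (40.5 to 84.6) among WT cells against 45.9 CPM (30.5 to 66.3) among KO cells and 63.5 CPM (43.7 to 89.2) among WT cells against 113 CPM (87.9 to 143) among KO cells and were not called. Bmpr2, the partner receptor, stood at 127 CPM in WT against 159 in KO.

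Among growth factor genes, 3 of 26 measured were higher and 4 lower. Angpt1 and Angpt2, ligands of the endothelial Tie2 receptor, were both lower, at 208 CPM (170.4 to 251) among WT cells against 111 CPM (86.5 to 141) among KO cells and 135 CPM (105 to 170.1) among WT cells against 60.6 CPM (42.7 to 83.5) among KO cells. Hbegf, a growth factor for muscle cells, was higher at 75 CPM in WT against 157 in KO. Of 28 genes of the synthetic state, 8 were higher and 5 lower, among them Actb at 5004 CPM in WT against 8018 in KO, Lgals1 at 1612 CPM in WT against 2649.8 in KO and Tnfrsf12a at 98.1 CPM (73 to 129) among WT cells against 295 CPM (253 to 341) among KO cells above, and Cav1 (caveolin) at 554 CPM (492 to 622) among WT cells against 287 CPM (246 to 332) among KO cells below. The list median was 0.21 over genes with UMIs in both libraries and 0.19 with Lum (lumican, at 0 UMIs in KO) at the bound that 3 KO UMIs set, and the latter turned to -0.13 without the 14 KO cells described above. Of 17 Wnt and hedgehog genes, only Gas1 was lower, at 179 CPM in WT against 91.7 in KO.

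Pericyte markers summed to 2341 CPM in WT and 3922 CPM in KO, with 5 of 12 higher (Postn, Trpc6, Mcam, Cspg4 and Higd1b) and Kcnj8 and Abcc9 lower. Mcam, an adhesion protein of mural cells, stood at 233 CPM (193 to 278) among WT cells against 730.4 CPM (664 to 801) among KO cells, and at 229.9 (WT), 1171 (KO Xist-only) and 582 (KO Y-only) CPM by sex. Pdgfrb, at 442 CPM (387 to 503) among WT cells against 645 CPM (583 to 712) among KO cells, and Rgs5, at 139 CPM in WT against 164 in KO, were not called. The ratios of Higd1b, Postn and Trpc6 turned below 1 without the 14 KO cells, at log2 values of -0.71, -0.050 and -0.85. Those of Mcam and Cspg4 fell under the 1.5-fold limit, at 0.51 and 0.38. No WT cells were left out beside the 14. The Cdkn1c set among them was high in pericyte genes, with Mcam at 3240.3 CPM, so a fall of such genes is built into this removal.

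Of 27 interferon and antigen presentation genes measured, 4 were lower (B2m, Bst2, Gbp3 and Ifitm1) and 3 higher, with a median log2 ratio of -0.56. B2m, the light chain of class I MHC, stood at 425 CPM (371 to 485) among WT cells against 247 CPM (209 to 290.0) among KO cells and Bst2, an antiviral membrane protein, at 144 CPM (113 to 181) among WT cells against 47.5 CPM (31.8 to 68.2) among KO cells. The interferon-induced genes Gbp3 and Ifitm1 stood at 28.9 CPM in WT against 3.28 in KO and 173 CPM in WT against 95 in KO. The class I heavy chains H2-D1 and H2-K1 were not called, at 585 CPM in WT against 398 in KO and 229 CPM in WT against 154 in KO. Both B2m and Bst2 were low in KO cells of both sexes, at 425 (WT), 209 (KO Xist-only) and 267 (KO Y-only) CPM and 144 (WT), 57.5 (KO Xist-only) and 47.5 (KO Y-only) CPM. The 3 higher genes, Cd74, H2-Aa and H2-Ab1, are those of class II, which AT2 cells also make: Cd74 stood at 88.5 CPM in WT against 201 in KO. Without the 3 cells marked as doublets its log2 ratio was -1.76, and without the 2 cells that met the AT2 rule it was -1.70. None of 18 inflammation genes was higher and 3 were lower, with C1s1, a complement protease, at 175 CPM in WT against 109.7 in KO. Of 27 hypoxia and glycolysis genes 2 were higher, Higd1a at 77 CPM in WT against 167 in KO and Higd1b, and 1 lower, Ndrg1. Of 9 cell cycle genes measured 2 were higher, both inhibitors: Cdkn1c and Cdkn1a (p21), at 84.6 CPM (61.5 to 114) among WT cells against 283 CPM (243 to 329) among KO cells, which was high in both KO sexes at 85.7 (WT), 334 (KO Xist-only) and 226 (KO Y-only) CPM.

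**Figure D5:**
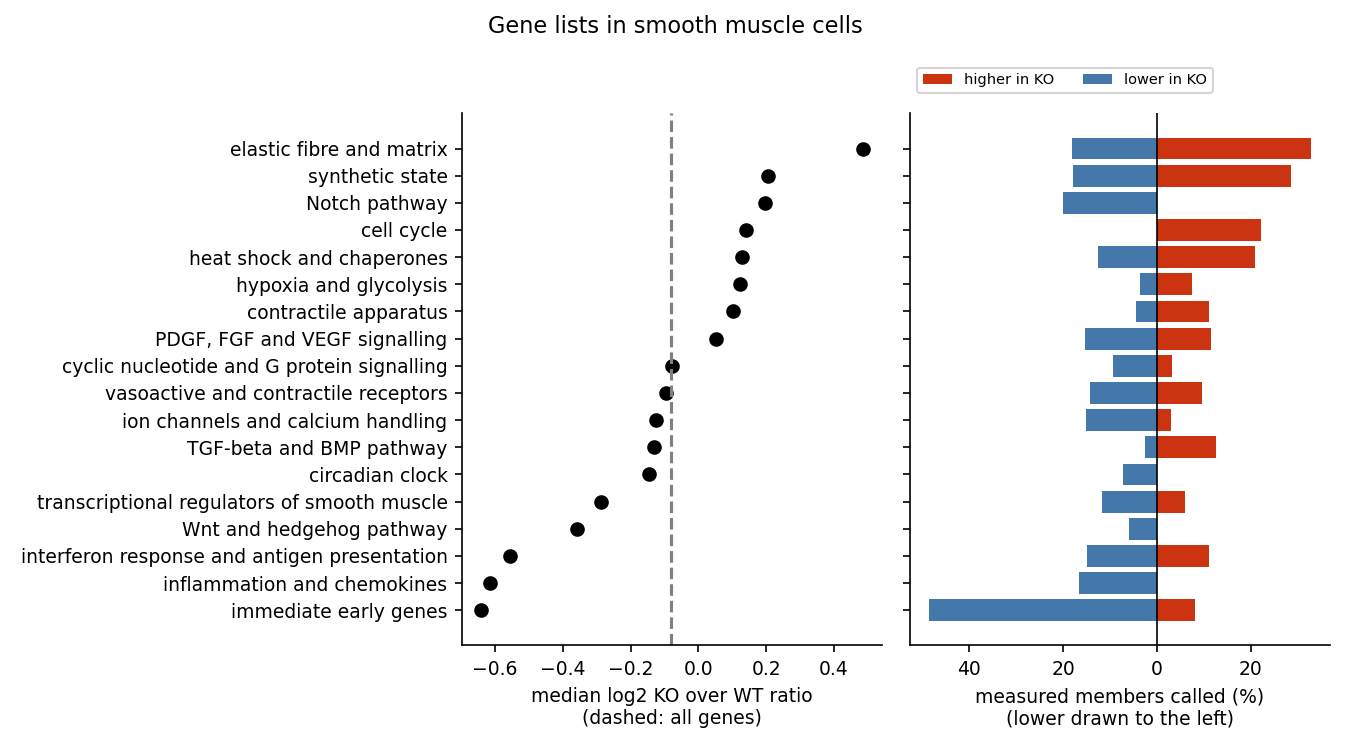
Left, the median log2 KO over WT ratio of the measured members of 18 gene lists, with the median of all genes at 10 CPM (-0.08) as a dashed line. Right, the percent of measured members called higher (red, to the right) and lower (blue, to the left). The elastic fibre and matrix list lies highest at 0.49, and the immediate early genes lowest at -0.64 with 18 of 37 lower.

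Between cells typed by sex, the counts differed. Against the 61 WT Xist-only cells, the 12 KO Xist-only cells had 334 genes (10.8%) higher and 286 (9.29%) lower. The 32 KO Y-only cells had 96 (3.06%) higher and 99 (3.15%) lower. Against KO Y-only cells, KO Xist-only cells had 233 (7.75%) higher and 166 (5.52%) lower, a comparison within 1 library and with no difference of genotype label. The KO Y-only and WT cells differ in sex as well as in label, so the label, the sex and the animal cannot be told apart in that comparison.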

How the data were processed

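The deposited values were raw UMI counts per gene and cell barcode, which the authors made, per the submitters' processing notes, from the mm10 build by Cell Ranger 3.0.1. The library kit was the 10x 3' v3 kit, per the labels' protocols. The 2 libraries held 25667220 (WT) and 17864581 (KO) UMIs in 3482 and 2196 barcodes, and barcodes under 500 genes or over 10% mitochondrial UMIs were dropped. The smooth muscle, fibroblast, endothelial and AT2 classes were taken by rules on marker UMIs. The 2-sided 95% limits are exact Poisson for levels, exact conditional binomial for ratios and Clopper-Pearson for shares, made with Python 3.11.15, numpy 2.4.6, scipy 1.17.1 and pandas 2.3.3, and the rules were tested on simulated counts. Scrublet, in scanpy 1.11.5, called doublets, which were kept in the main values. Thinning drew 1500 UMIs per cell without replacement; every smooth muscle cell was deep enough, and 86 WT and 33 KO endothelial cells and 7 WT and 16 KO AT2 cells were left out as shallower.

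Named were the 12 highest and 12 lowest called ratios at 50 CPM (mitochondrial, ribosomal, haemoglobin, predicted, sex-linked, rule and other-type marker genes left out), up to 4 called and 4 highest-level members of each list, subtype markers, 12 leading genes and the correlates of Actg2 and Notch3. Further list members were named after their values were seen: Acvrl1, Adora1, Angpt1, App, Bmpr2, Cacna1c, Cald1, Cav1, Cd74, Csrp1, Ednrb, Egr1, Eng, Fbln5, Fbn1, Fn1, Fst, Gpx3, H2-K1, Hbegf, Hspg2, Id1, Ifitm1, Junb, Lamb1, Lgals1, Lox, Loxl1, Loxl2, Ltbp2, Ltbp3, Ltbp4, Malat1, Mfap5, Myocd, Nid1, Ogn, Pdlim5, Ppp1r12a, Prelp, Sparcl1, Srf, Tbx5, Tgfb3, Timp3, Tnfrsf12a, Tpm1. Some genes that these rules name are not reported here. Cells, lists and rules were chosen with earlier results of these data known. Of 732 list and marker genes, 730 were in the files; coordinates are GENCODE M21 (GRCm38), matched by identifier for 27722 of 27998 features. Counting strand was not given in the sources used here, so overlapping genes may share reads.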

Additional observations from a re-analysis of the deposited data

How the results depend on the processing

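The 15 alternatives changed the limits on genes and mitochondrial UMIs, the rule, the depth, the scaling, the doublets or the cells used, and 3 of them (KO Y-only cells, AT2-rule cells out, KO cells with Igfbp2 or at least 15 Cdkn1c UMIs out) were chosen after seeing the data. With the settings of the report, 189 genes and 56 list members were higher and 182 genes and 68 list members lower. Thinning to 1500 UMIs left 41 and 42 genes and 22 and 20 list members. Xist-only cells gave 334 and 286 genes and 89 higher list members, KO Y-only cells 96 and 99 genes, and no minimum beyond 3 UMIs 301 lower genes. Without the Igfbp2 and Cdkn1c cells the counts were 81 and 98 genes and 22 higher list members. The share of WT cells was 1.49% with endothelial UMIs at 0, and the shares were 1.67% (WT) and 2.41% (KO) when every cell was thinned before the rule. Of 105 named genes that were called, 88 kept their sign in every alternative and 43 also stayed past 1.5-fold. The log2 ratios that changed sign were Atf3 (0.13), Fst (-0.11), Higd1b (-0.58) with limits of 1000 genes and 5% mitochondrial UMIs, and Cd74 (-3.34), H2-Aa (-1.86), H2-Ab1 (-1.50) with endothelial UMIs at 0, and Cd74 (-0.94), Fst (-0.32), H2-Aa (-0.77), Lox (-0.15), Pdlim5 (-0.55), Rbpj (0.10) with thinning, and Cd74 (-1.76) without doublets, and Cd74 (-1.50) without the 5 deepest cells of each library, and Cd74 (-3.10), H2-Aa (-0.31) in Xist-only cells, and Hbegf (-0.29), Loxl2 (-0.18) in KO Y-only cells, and Cd74 (-1.70) without the cells that met the AT2 rule, and Col12a1 (-0.16), Flt1 (-0.36), Hbegf (-0.052), Higd1b (-0.71), Lgals1 (-0.085), Loxl2 (-0.39), Postn (-0.050), Tgfb3 (-0.18), Trpc6 (-0.85) without the Igfbp2 and Cdkn1c cells. The cause was not tested. No paired analysis was possible because each group is 1 library. Leaving out the cells that also met the fibroblast rule was not run, since it leaves too few cells, and the mean of each cell's CPM gives no counting limits and so no counts of calls. Depth limited the calls most, as thinning to 1500 UMIs left 93000 WT and 79500 KO UMIs.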
